A study of Mus musculus with 4 samples.

Results

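The genes described here are 10 regulators of mitochondrial biogenesis: the coactivators Ppargc1b and Pprc1, the transcription factors Esrra, Nrf1 and Gabpa, and the mitochondrial DNA factors Tfam, Tfb1m, Tfb2m, Polrmt and Polg. They were chosen by symbol, as genes known for this role, and all 10 were among the 17194 symbols of the deposited table and among the 15651 genes that passed the filter on low counts. The samples were 4 libraries of polyadenylated RNA from primary mouse macrophages derived from bone marrow, all of them given RANKL, the cytokine that drives such precursors toward bone-resorbing osteoclasts, and collected on day 2. Of these, 2 libraries were siControl and 2 were siHells, cells given an siRNA against Hells, a chromatin remodelling ATPase. The strain, age and number of the mice, and the siRNA sequences, are not stated in the labels, and nothing in the labels says that the libraries of a group came from separate cultures. The p-values therefore rest on the spread among these 4 samples alone, and that spread may be technical.

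Mitochondrial biogenesis joins the nuclear genome, which encodes most mitochondrial proteins, to the small mitochondrial genome, which encodes core subunits of the respiratory chain. Coactivators of the PGC-1 family bind no DNA themselves. They act through DNA-binding partners such as the estrogen-related receptor ERR alpha (Esrra), nuclear respiratory factor 1 (Nrf1) and GABP, whose DNA-binding subunit is Gabpa. These factors in turn drive nuclear respiratory genes and the proteins that copy and transcribe mitochondrial DNA. Osteoclasts are rich in mitochondria, and PGC-1 beta, the product of Ppargc1b, is known as the family member induced during their formation.

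Total counts ranged from 48873635 to 55642819 per library. Read counts of Hells itself were 1613 and 1501 in the controls but 823 and 785 after knockdown, so the knockdown was partial. Levels are given as CPM, the counts of a gene scaled to library size. Macrophage markers were present throughout, and the 7 listed genes summed to 15960 and 16050 CPM in siControl and 23220 and 22580 CPM in siHells. Lyz2 was the largest part of each sum. Of the 7, 6 were higher in siHells and 1, Cd68, was lower (log2 fold change -0.28). Osteoclast markers were lower in siHells in 9 of 9 cases, and their summed level was 8823 and 8860 CPM in siControl against 1379 and 1342 in siHells. Among markers of other marrow cells, 5 of 7 stromal, 3 of 4 megakaryocyte and 1 of 2 mast cell genes tested were higher, while 1 stromal, 4 of 6 neutrophil and 1 mast cell gene were lower. The summed stromal level was 849 and 870 CPM in siControl and 1403 and 1392 in siHells, and the summed neutrophil level was 438 and 442 CPM in siControl and 374 and 352 CPM in siHells, all over library totals. The part of these marker changes, or of any change in cell makeup, in the results below was not tested. In bulk RNA fewer cells of a type cannot be told apart from less RNA per cell.

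Levels of single genes are TMM-scaled CPM, and changes are log2 fold changes of siHells over siControl from edgeR's quasi-likelihood test, called at a Benjamini-Hochberg adjusted p under 0.05 over all 15651 genes. Of the 10 regulators, 6 were lower, 2 were higher and 2 were not called. Over all genes tested 58.5% were called, 29.5% lower and 29.0% higher, so calls as such were common. The median log2 fold change of the regulators was -0.26, and that of all genes was -0.0043. The siHells libraries lay below both siControl libraries for 7 regulators and above both for 2. Over all genes the groups did not overlap in 78.5%, with siHells below in 39.4% and above in 39.1%. Against a change of 1.5-fold rather than none, only Ppargc1b was called among the 10 (adjusted p = 4.18e-10), where 15.1% of all genes were called by that test, 7.00% lower and 8.06% higher.

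**Figure D1:**
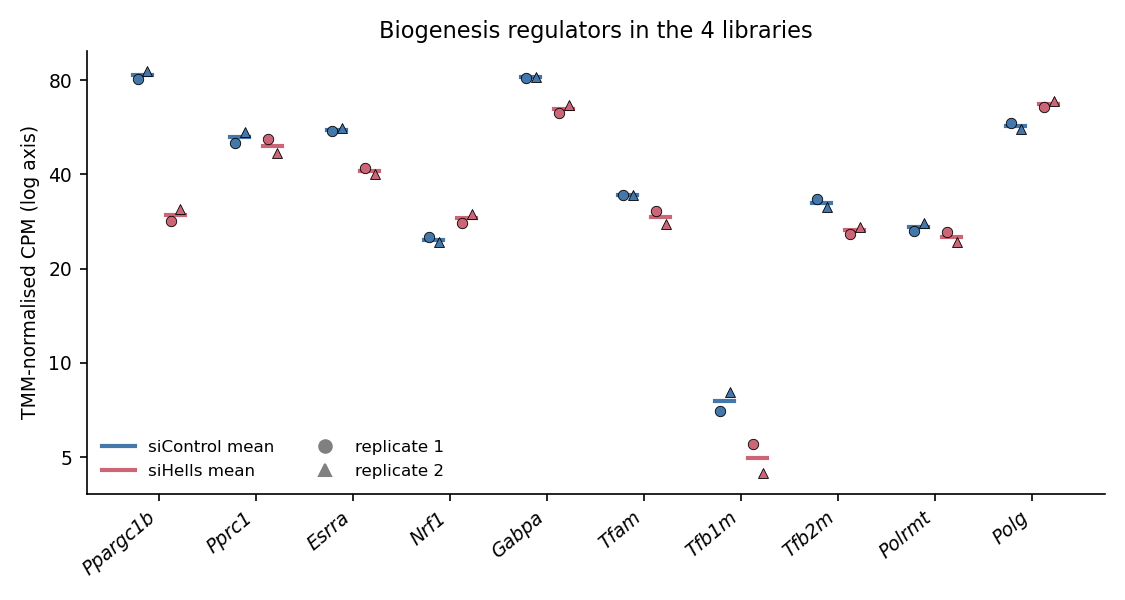
TMM-normalised CPM (log axis) of the 10 regulators in each of the 4 libraries. Points are libraries, with the marker giving the replicate, and horizontal lines are group means of 2. Ppargc1b had the widest gap between groups, and only for Pprc1 did the groups overlap.

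Among the coactivators, Ppargc1b fell and Pprc1 was not called. Ppargc1b stood at 80.4 and 85.5 CPM in the siControl libraries and at 28.4 and 31.0 CPM in the siHells libraries, from 4420, 4281, 1541 and 1663 counts. Both siHells libraries were far below both siControl libraries. Its mean went from 83.0 ± 3.63 to 29.7 ± 1.82 CPM (SD, n = 2 each), which is -1.48 on the log2 scale (SE 0.0558, adjusted p = 3.94e-12, edgeR). Counting upward from the most negative change, this places it at 2.75% of all genes tested. Ppargc1b is a protein-coding gene on chromosome 18 whose intron holds the microRNA gene Mir378a, which was not analysed here.

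Pprc1 encodes PRC, a PGC-1 family member known for a rapid response to growth signals. It was measured at 50.5 and 54.7 CPM in siControl and 51.9 and 46.9 CPM in siHells, so the groups overlapped. The log2 fold change was -0.09 with a 95% interval of -0.22 to 0.04 (adjusted p = 0.210), which leaves room for a small fall. The value moved with single libraries. It was -0.16 without siHells replicate 1 (adjusted p = 0.0189, called) and -0.15 without siControl replicate 1 (adjusted p = 0.0874), but -0.015 without siHells replicate 2 (adjusted p = 0.855) and -0.026 without siControl replicate 2 (adjusted p = 0.795). With library totals in place of TMM it was -0.16 (adjusted p = 0.0280). Pprc1 lies on chromosome 19 at 46044886 to 46072915 of GRCm38, plus strand, and shares 177 exonic bases with Ldb1 on the opposite strand, a gene that was higher (log2 fold change 0.53). The counting is not stated to use strand, so reads from those bases could not be told apart.

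A ratio of counts within a library needs no scaling between libraries. Ppargc1b to Pprc1 was 1.59 and 1.57 in siControl and 0.548 and 0.661 in siHells, a difference of -1.39 in mean log2 ratio. Ppargc1b thus had more reads than Pprc1 in both siControl libraries and fewer in both siHells libraries. With 2 libraries against 2 an exact two-sided permutation test of a single ratio cannot go below p = 0.333, so these ratios are given without a test. Ppargc1a, the founding member of the family, was not analysed here.

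Of the DNA-binding partners, Esrra and Gabpa fell and Nrf1 rose. Esrra, the orphan receptor through which PGC-1 beta activates oxidative genes, was at 54.8 and 56.3 CPM in siControl and 41.8 and 40.1 CPM in siHells. All 4 values kept the groups well apart. The log2 fold change was -0.44 (SE 0.0508, adjusted p = 2.23e-06), a fall of 1.36-fold. Esrra is on the minus strand of chromosome 19, at 6910977 to 6921813 of GRCm38, with 73 exonic bases shared with the opposite-strand gene Trmt112, whose own log2 fold change was -0.04 (adjusted p = 0.634).

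Nrf1 here is nuclear respiratory factor 1, an activator of cytochrome c and of many other nuclear genes for mitochondria, and not the unrelated stress factor that shares the name. Its level was 25.2 and 24.3 CPM in siControl and 28.0 and 29.8 CPM in siHells. Both siHells libraries were above both siControl libraries by a narrow margin. The log2 fold change was 0.22 (SE 0.0642, adjusted p = 0.00745), a rise of 1.17-fold that was no longer called when library totals replaced TMM (0.15, adjusted p = 0.0576). The gene is on chromosome 6 at 30047988 to 30153458, plus strand, and shares no exonic base with another annotated gene. The count ratio of Esrra to Nrf1 was 2.18 and 2.32 in siControl and 1.49 and 1.34 in siHells.

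Gabpa, the ETS-family subunit that gives GABP its DNA contact, was at 80.9 and 82.1 CPM in siControl and 62.8 and 66.6 CPM in siHells. The groups stood apart, and the log2 fold change was -0.33 (SE 0.0454, adjusted p = 1.31e-05), a fall of 1.26-fold. Gabpb1, a partner subunit that carries the activation domain, went from 18.8 ± 0.197 to 19.6 ± 0.697 CPM (SD, n = 2 each). It was not called (log2 fold change 0.06, 95% interval -0.09 to 0.21, adjusted p = 0.487). Another partner subunit, Gabpb2, had more reads than Gabpb1, at 79.8 CPM in siControl and 86.8 CPM in siHells on average. These values are not adjusted for transcript length. Gabpb2 was called higher (log2 fold change 0.12, adjusted p = 0.0206). Gabpa counts were 4.34 and 4.33 times those of Gabpb1 in siControl and 3.12 and 3.48 times in siHells. Gabpa lies on chromosome 16 at 84834925 to 84863779, plus strand. Atp5j, an ATP synthase subunit gene on the other strand, shares 397 exonic bases with it (6.98% of the exons of Gabpa). It fell too, with a log2 fold change of -0.56 (adjusted p = 1.03e-08), and the part of the shared bases was not tested.

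Among mRNAs for proteins that act in mitochondrial DNA expression and copying, Tfam, Tfb1m and Tfb2m fell, Polrmt was not called and Polg rose. Tfam, which packages mitochondrial DNA and starts its transcription, was at 34.4 CPM in each siControl library and at 30.6 and 27.7 CPM in siHells. Both siHells values were lower, and they differed from one another more than the siControl values did. The log2 fold change was -0.24 (SE 0.0628, adjusted p = 0.00441), a fall of 1.18-fold. Tfam is on chromosome 10 at 71225464 to 71238280, minus strand, with no overlapping gene in the annotation.

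Tfb2m, the partner of the mitochondrial RNA polymerase that opens the promoter, was at 33.2 and 31.5 CPM in siControl and 25.8 and 27.2 CPM in siHells. The groups were apart (log2 fold change -0.29, SE 0.0621, adjusted p = 0.000931), a fall of 1.22-fold. Tfb1m, its relative, methylates the small mitochondrial ribosomal RNA. It had the lowest level of the 10, at 7.04 and 8.05 CPM in siControl and 5.52 and 4.44 CPM in siHells, from 387, 403, 299 and 238 counts. Its fall of 1.51-fold (log2 fold change -0.60, SE 0.134, adjusted p = 0.00135) had the widest error of the 10, with a 95% interval of -0.88 to -0.31. Tfb2m counts were 4.72 and 3.92 times those of Tfb1m in siControl and 4.68 and 6.13 times in siHells, so the groups overlapped for this ratio. Tfb1m (chromosome 17, 3519256 to 3557781, minus strand) shares 142 exonic bases with Tiam2 on the opposite strand, which fell by 1.01 on the log2 scale. Tfb2m (chromosome 1, 179528055 to 179546267, minus strand) shares none.

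Polrmt, the single-subunit RNA polymerase of mitochondria, was at 26.4 and 28.0 CPM in siControl and 26.2 and 24.2 CPM in siHells. The siHells libraries were the lower ones, but the nearest values of the groups almost met, and the gene was not called (log2 fold change -0.11, 95% interval -0.25 to 0.04, adjusted p = 0.181). With library totals in place of TMM it was called (-0.18, adjusted p = 0.0301). Leaving out 1 library gave -0.16 without siHells replicate 1 (adjusted p = 0.0764) and -0.16 without siControl replicate 1 (adjusted p = 0.139), but -0.050 without siHells replicate 2 (adjusted p = 0.616) and -0.059 without siControl replicate 2 (adjusted p = 0.601), and it was not called in any of these. Polrmt is on the minus strand of chromosome 10, at 79736123 to 79746581.

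Polg, the catalytic subunit of the DNA polymerase gamma that replicates mitochondrial DNA, was at 58.5 and 55.8 CPM in siControl and 65.8 and 68.8 CPM in siHells. Both siHells libraries were higher, by 1.18-fold on average (log2 fold change 0.23, SE 0.0480, adjusted p = 0.000622). The accessory subunit Polg2 had a log2 fold change of the same size, 0.23, but at 3.95 and 4.64 CPM on average its error was larger and it was not called (SE 0.144, adjusted p = 0.179). The 2 subunits kept a like ratio, with 15.2 and 13.8 Polg counts per Polg2 count in siControl and 15.3 and 13.8 in siHells. Set against Tfam, the count ratio of Polg was 1.70 and 1.63 in siControl and 2.15 and 2.48 in siHells, a difference of 0.48 in mean log2 ratio. Polg (chromosome 7, 79446231 to 79466362, minus strand) shares 921 exonic bases, 8.57% of its exons, with the DNA repair gene Fanci on the opposite strand, which fell by 0.75 on the log2 scale.

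**Figure D2:**
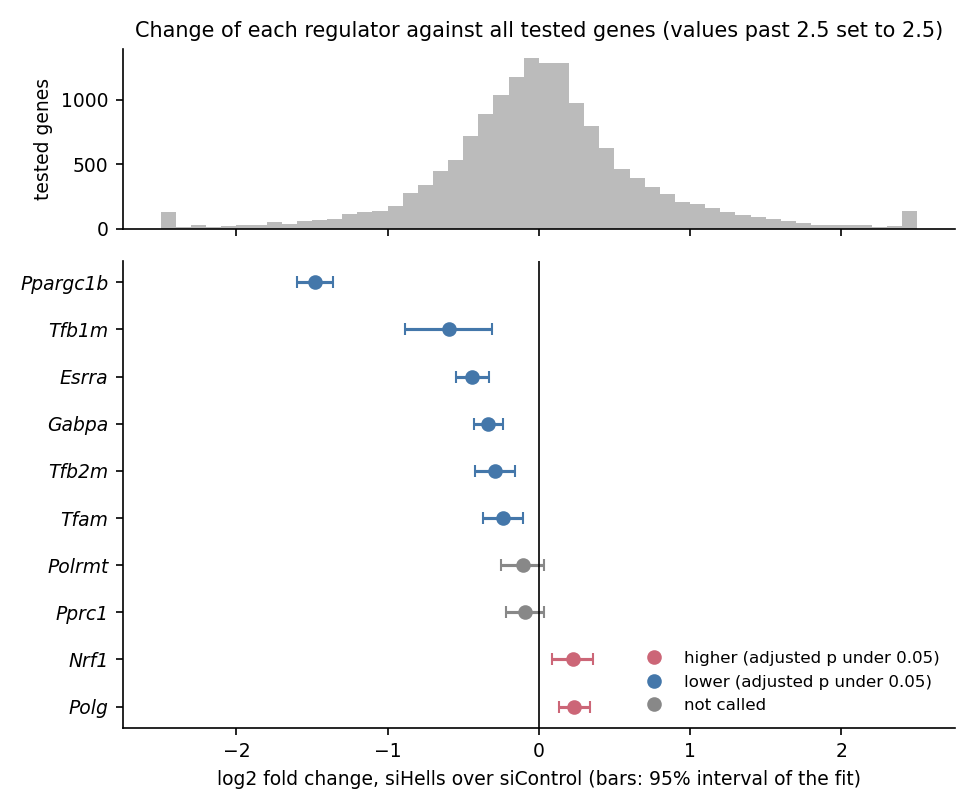
Upper panel, number of tested genes by log2 fold change (siHells over siControl), with values beyond 2.5 in either direction set to 2.5. Lower panel, each regulator's log2 fold change with its 95% interval from the fit. Ppargc1b at -1.48 lies in the tail, the other called regulators lie between -0.60 and 0.23, and the intervals of Polrmt and Pprc1 include 0.

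**Figure D3:**
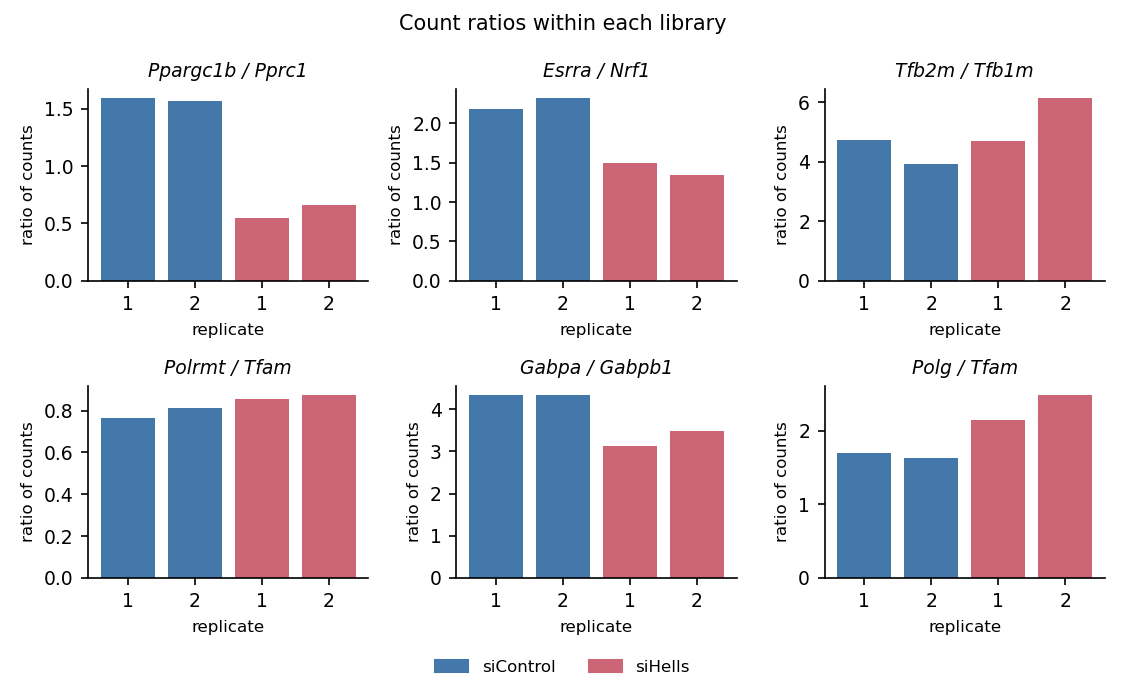
Ratio of read counts between pairs of genes in each library, by group and replicate, with every axis starting at 0. The ratio of Ppargc1b to Pprc1 went from 1.59 and 1.57 to 0.548 and 0.661, while for Tfb2m to Tfb1m the groups overlapped.

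Among the regulators, 4 with different outcomes carried the same short motif before their RefSeq start sites, and the stretches are shown because GABP is both one of the regulators and a reader of that motif. In RefSeq start-site windows (GRCm38.p6, 250 bases before the start), 9 of the 10 regulators had an entry that was searched on both strands for CCGGAAG, an ETS core bound by GABP. Ppargc1b was the regulator not searched, so the motif results do not cover it. A match was found for 4 of the 9, namely Gabpa, Tfam, Polrmt and Polg, and for 14.9% of the 11259 tested genes with an entry. Each line below reads on the strand that spells the motif, which is in capitals:
Gabpa: agctgagggacCCGGAAGcacttaccctc
Tfam: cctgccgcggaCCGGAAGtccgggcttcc
Polrmt: ttctgcgactgCCGGAAGcgctcttaggg
Polg: gaggacctcacCCGGAAGtccctctgcac
These lie at chr16:84835020-84835048 (minus strand), chr10:71238074-71238102 (minus), chr10:79746607-79746635 (plus) and chr7:79466294-79466322 (minus). On the strand of the gene the matches begin 93, 47, 43 and 38 bases before the RefSeq start. The annotations differ in where these genes begin: by the GENCODE M21 bounds given above, the matches of Gabpa, Tfam and Polg lie inside the gene, and that of Polrmt lies before it. Of these 4 genes, Gabpa and Tfam fell, Polrmt was not called (log2 fold change -0.11) and Polg rose. Whether the motif bears on these changes was not tested. The NRF-1 motif GCGCATGCG, the ERR motif TCAAGGTCA and the cyclic AMP element TGACGTCA were not in the windows of the 9 regulators as spelled, and were in those of 3.21%, 0.302% and 2.87% of the tested genes. Since only CCGGAAG was found, no overlap between motifs could occur in these windows. A match is a description of the letters and not evidence of binding.

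Levels were compared between genes per length of merged GENCODE M21 exons, as TMM-normalised RPKM (CPM divided by length in kilobases). On this scale Ppargc1b was the most abundant of the 10 in siControl, at 20.8 ± 0.910 (SD, n = 2), ahead of Gabpa at 14.3 ± 0.138 and Esrra at 12.7 ± 0.247. Tfb2m, Pprc1, Tfam, Polrmt and Polg followed, from 11.6 down to 5.32, and Nrf1 and Tfb1m were lowest, at 2.41 ± 0.0605 and 2.09 ± 0.198. In siControl no neighbours in this order had overlapping ranges. In siHells Ppargc1b ranked 5 of 10 at 7.45 ± 0.455, behind Gabpa at 11.4 ± 0.468, Tfb2m, Esrra and Pprc1. There the ranges overlapped for Tfb2m and Esrra, for Pprc1 and Ppargc1b, and for Tfam and Polg, so those neighbours did not differ beyond their spread. The order depends on the annotated exon lengths, which ran from 2804 bases for Tfb2m to 10742 for Polg.

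**Figure D4:**
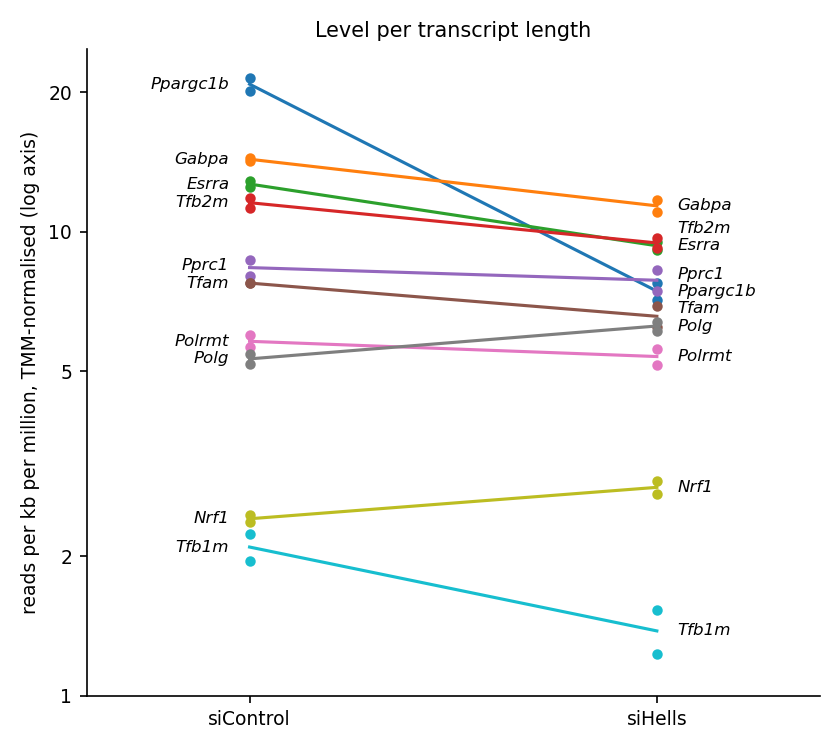
TMM-normalised RPKM over merged exons (log axis) for the 10 regulators in siControl and siHells. Points are libraries and lines join group means. Ppargc1b went from the highest level, 20.8, to the middle of the order, 7.45.

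The wider pathway was read from 6 lists by role, with 130 tested genes in their union apart from the 10 regulators, of which 73 were lower (56.2%) and 23 higher (17.7%), against 29.5% and 29.0% of all genes. The median log2 fold change ran from -0.88 for mRNAs of the mitochondrial genome to 0.17 for repressors. Genes without a place in the naming rule (Polg2, Gabpb1, Gabpb2, Twnk, Ssbp1, Tefm, Supv3l1, Prorp, Pnpt1, Ncoa3 and the genes that overlap a regulator) are named for their role and were chosen after their values were seen. COX1 is named for its level, also after its values were seen.

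Partners and activators of the PGC-1 coactivators were more often higher, 15 of 30 tested, with 6 lower and a median of 0.13. Ncoa1, a steroid receptor coactivator, rose from 41.8 to 112 CPM (log2 fold change 1.42, SE 0.0463, adjusted p = 6.97e-13). Its relative Ncoa2 rose by 0.59 on the log2 scale, while Ncoa3 was not called (-0.05, adjusted p = 0.235). Mapk14, the p38 kinase that phosphorylates PGC-1 proteins, rose by 0.61, and the acetyltransferase Ep300 by 0.44. Of the 6 that fell, the nuclear receptors were Pparg (-0.29) and Thrb (-0.76). The others were the transferrin receptor Tfrc (-1.48), the arginine methyltransferase Prmt1 (-0.80), the host cell factor Hcfc1 (-0.16) and the deacetylase Sirt1 (-0.19). Tfrc was counted in this list, although it is an iron-uptake receptor and not a binding partner of these coactivators.

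Repressors of these coactivators and their receptors were higher in 5 of 10 cases and lower in 1, with a median of 0.17. The nuclear receptor corepressor Ncor1 rose by 0.33 on the log2 scale, and Zfp746, a zinc finger repressor of PGC-1 alpha, by 0.42. Nr2f2, an orphan receptor named in the series title, rose from a low level, its counts being 13 and 38 in the controls and 104 and 123 after knockdown (log2 fold change 2.11, SE 0.344, adjusted p = 9.20e-05). The gene that fell was Mybbp1a, a MYB-binding nucleolar protein that represses PGC-1 alpha (-0.37).

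Genes that replicate and maintain mitochondrial DNA went both ways, 7 lower and 3 higher of 21, with a median of -0.08. Dna2, a nuclease and helicase shared with the nucleus, fell from 25.0 to 11.8 CPM (log2 fold change -1.09, SE 0.0746, adjusted p = 5.68e-09). Fen1, the flap endonuclease that is also shared, fell by 0.48 on the log2 scale, Atad3a, an inner membrane ATPase of the nucleoid, by 0.62, and the protease Lonp1, which degrades Tfam, by 0.33. The 3 that rose supply nucleotides inside mitochondria. They were thymidine kinase Tk2 (0.63), deoxyguanosine kinase Dguok (0.55) and the pyrimidine carrier Slc25a33 (0.51). Of the core replisome, the helicase Twnk (-0.13, adjusted p = 0.189) and the single-strand binding protein Ssbp1 (-0.06, adjusted p = 0.411) were not called.

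Mitochondrial transcription and RNA processing had 15 of 24 genes lower and 9 not called, with a median of -0.28. Hsd17b10 and Trmt10c, the subunits that form the tRNA methyltransferase of mitochondrial RNase P, fell by 1.25 and 0.95 on the log2 scale, from 102 to 42.9 CPM (SE 0.0447, adjusted p = 2.20e-12) and from 46.2 to 23.9 CPM. Their nuclease partner Prorp fell by 0.37 (adjusted p = 0.00457). Lrpprc, which stabilises mitochondrial mRNAs, and Fastk each fell by 0.60. The helicase Supv3l1 of the RNA degradation complex fell by 0.77, while its partner nuclease Pnpt1 was at 50.8 and 50.7 CPM on average and was not called (adjusted p = 0.972). Tefm, the elongation factor that works with Polrmt, was not called (-0.16, adjusted p = 0.219).

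The output side of the pathway was lower almost throughout. Of 32 nuclear respiratory genes known as targets of NRF-1, GABP or ERR alpha, 31 fell, with a median of -0.78. Cycs, which encodes cytochrome c, fell by 1.33 on the log2 scale, Mdh2, malate dehydrogenase, by 1.25, the nucleotide carrier Slc25a5 by 0.98 and the ATP synthase subunit Atp5b by 0.94. The exception, Cyc1, had a log2 fold change of -1.08 and siHells counts of 5043 and 7141 (adjusted p = 0.0719). All 13 mRNAs of the mitochondrial genome fell, with a median of -0.88, among them ND1 by 1.26, CYTB by 1.04, COX3 by 0.95 and COX2 by 0.88. The falls differed in size. COX1, which had the highest CPM of the 13, fell the least, by 0.19, from 11466 to 10044 CPM on average. The share of the 13 mRNAs in all counts was 3.27% and 3.18% in siControl and 2.02% in each siHells library. Beyond 1.5-fold, 24 of the 32 nuclear targets and 10 of the 13 mitochondrially encoded genes were lower, against 1 of the 10 regulators. The osteoclast markers fell beside these genes, 8 of 9 beyond 1.5-fold, and their part was not tested.

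**Figure D5:**
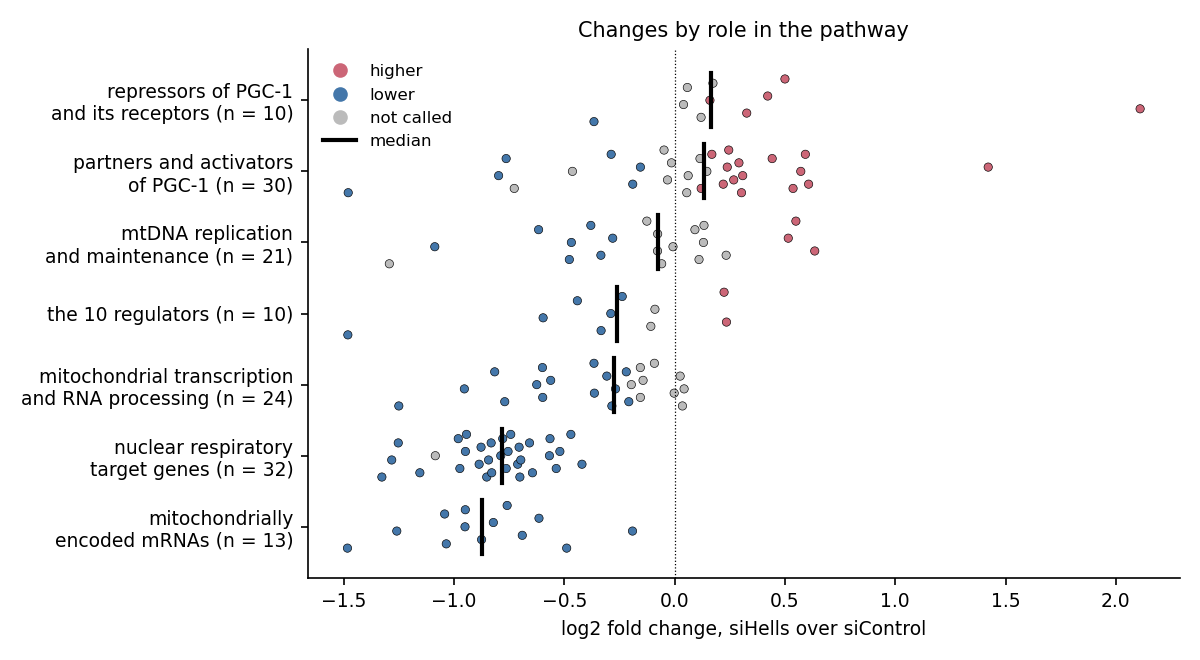
Log2 fold change (siHells over siControl) of every tested gene in 6 pathway lists and in the 10 regulators, coloured by call, with the median of each list as a vertical bar. The medians run from 0.17 for repressors to -0.88 for mitochondrially encoded mRNAs, and the 10 regulators lie at -0.26.

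The genes most like Ppargc1b were sought over the 4 libraries, by the Euclidean distance between log2 CPM profiles centred on each gene's mean, among 11817 genes whose log2 CPM averaged 1 or more. The closest was Tfrc, the transferrin receptor that brings iron into the cell, at a distance of 0.0586. It was at 479 and 482 CPM in siControl and 163 and 181 CPM in siHells. Next came the kinase Cdk18 (0.0678), Btbd11 (0.0717), the RNA-binding protein Msi2 (0.0788) and the calpain Capn5 (0.0803), with log2 fold changes from -1.44 to -1.56. With 4 libraries this distance reflects mainly the difference between the groups, so many genes with a similar fold change lie close.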

How the data were processed

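Raw counts per symbol, as deposited by the authors, were taken for 4 libraries and had not been normalized. Per the submitters' processing notes, the build was mm10, and the tools included HISAT2 2.1.0 and StringTie 2.1.3b, Trimmomatic 0.38, FastQC and edgeR, with no roles stated. The sources used here give neither the annotation release nor the strand setting. The protocols name both the SMARTer mRNA-Seq and the TruSeq Stranded mRNA kit, so which kit made a library is unclear. The table holds 0 values of 0 and its lowest count is 1, so genes with no read in a library were not analysed here.

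Genes were kept by filterByExpr (minimum count 10, minimum total 15), which removed 1543 and left 15651. Counts were scaled by TMM and tested with the edgeR quasi-likelihood test (edgeR 4.0.16, R 4.3.3; robust, group as the only term, 2 residual degrees of freedom), with Benjamini-Hochberg adjustment over all genes tested and a threshold of 0.05. A minimum count of 10 stands for 0.180 to 0.205 CPM. A change beyond 1.5-fold was tested with glmTreat. Standard errors are the log2 fold change divided by the root of the F statistic. Tests and 95% intervals use the fit's total degrees of freedom, which borrow spread across genes and were 14.4 to 14.5 for the regulators. The procedure was tested on simulated data. Replicates differed by more than random sampling of reads from 1 library would give, with a chi-square per gene of 3.45 in siControl and 6.26 in siHells. Whether this spread is technical was not tested.

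Genes were named by a rule: Hells, Nr2f2 and the 10 regulators; in each list up to 4 rises and 4 falls with the smallest p and those against the list's majority; and the 5 genes closest to Ppargc1b. A gene that the rule names is not reported here. The members and lists were chosen with earlier results of these data known. Alternatives were other scalings, filters, tests (DESeq2 1.42.0, limma 3.58.1 voom, the legacy fit), thresholds, a replicate block, and each library left out. Coordinates and exon lengths are from GENCODE M21 (GRCm38), matched by symbol, and promoter windows from RefSeq (GRCm38.p6).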

Additional observations from a re-analysis of the deposited data

How the results depend on the processing

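Every regulator kept its direction under all 15 alternatives. The stricter threshold and the 1.5-fold test reuse the log2 fold changes of the main fit, so direction could not change there. Against a change of 1.5-fold in place of none, 1261 genes were higher and 1096 lower. By that test 0 regulators were higher (glmTreat, also 0 at an unadjusted p under 0.05; no other tool was run) and 1 was lower, and the pathway lists had 2 genes higher and 40 lower. With library totals in place of TMM, 1 regulator was higher and 8 were lower. The other counts of calls stayed within 1.5 times. Of 150 log2 fold changes of single regulators under an alternative, 139 kept their side of the threshold, 8 lost it and 3 gained it. With each library left out in turn, 2 regulators were higher and 6 to 7 lower. The replicate numbers are not stated to pair samples, and deviations of same-numbered libraries had a correlation of 0.0499 across genes. The fit with a replicate block called 2 regulators higher and 6 lower, and 4502 genes higher and 4586 lower. Among the regulators Tfb1m had the fewest counts and the largest standard error.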
